A study of Mus musculus with 9 samples.

Results

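The genes described here are 47 that build, sulfate and trim chondroitin sulfate and heparan sulfate, out of 56748 genes in the deposited count table. They were chosen by name, as the rows of the table whose symbol is on a list of precursor supply genes, linker enzymes, polymerases, sulfotransferases, epimerases and sulfatases, and all 47 symbols were found, each in 1 row. Expression was measured by RNA sequencing in chondrocytes, the cells of cartilage, released with collagenase from knee cartilage of wild-type mice and cultured with serum. The 9 libraries fall into 3 groups of 3. Cells of 1 group received interleukin-1β (IL-1β), an inflammatory cytokine, and also recombinant SFRP5, a frizzled-related protein that is released from cells and can bind Wnt ligands. Another group received IL-1β alone, and the control group received neither. All groups share the wild-type genotype and the culture conditions, and SFRP5 was given only on top of IL-1β, so its effect in resting cells was not measured. Animal age and sex, doses and treatment times are not in the labels, and nothing there says whether the libraries of a group came from separate animals or cultures, so p-values reflect differences among libraries that could be technical repeats.

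Chondroitin sulfate and heparan sulfate are long sugar chains attached to core proteins such as aggrecan, perlecan and the syndecans. Both start on the same short linker, which begins with xylose on a serine of the core protein, and then grow by alternating a uronic acid with an amino sugar, N-acetylgalactosamine for chondroitin and N-acetylglucosamine for heparan. Sulfate is added along the chain from the activated donor PAPS in the Golgi. In cartilage, the sulfated chondroitin chains of aggrecan bind water and give the tissue its resistance to compression, while heparan sulfate binds growth factors and morphogens.

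Total counts per library were 15795985 to 20688963. The levels below are CPM, counts scaled to a common library size with TMM factors. Differences are log2 fold changes ± standard error (SE) from edgeR's quasi-likelihood test, fitted once over all 9 libraries and all 15502 genes with enough counts, and called changes are those with an adjusted p (Benjamini-Hochberg over all genes tested) under 0.05. After a mean CPM, ± is the SD of the 3 libraries of a group. Of the 47 members 45 had enough counts to be tested. All 13 markers of chondrocytes on the list used to check the label were detected in every group. Their summed level was 32023 to 33393 CPM in libraries with IL-1β and SFRP5, 26498 to 27843 CPM with IL-1β and 115804 to 118380 CPM in control libraries, and all 13 were lower with IL-1β than in control. Summed levels of 5 synovial fibroblast markers were 1119 to 1152, 862 to 919 and 188 to 190.2 CPM in the same order, with 2 of them higher and 2 lower after IL-1β. Those of 9 macrophage markers were 37.3 to 42.8, 55.2 to 59.1 and 16.4 to 17.8 CPM, with Fcgr1 at 0 counts in the IL-1β libraries. The macrophage markers did not move together: of 6 tested 4 were higher after IL-1β and 1, Laptm5, was lower. Ptprc and Adgre1 had too few counts to be tested. Of 5 neutrophil markers Ly6g, Ngp and S100a9 had 0 counts in every library, and the sums were 4.83 to 7.22, 5.83 to 7.21 and 0 to 0.0508 CPM. Sums were 3.07 to 4.83, 2.37 to 4.12 and 63.7 to 70.4 CPM for 5 osteoblast markers. The 5 endothelial markers summed to at most 4.19 CPM in any library and the 5 of skeletal muscle to at most 4.24 CPM. The part of such changes in the results below was not tested. In cultures of mixed cells, fewer cells of a type and less RNA per cell cannot be told apart.

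The first comparison asked what IL-1β changed. After IL-1β most of the chain-building genes were lower. Of the 45 tested members 32 fell and 9 rose, and 4 were not called. Thus 71.1% of the tested members fell, against 40.4% of all tested genes, and 20% rose, against 38.5%. At least 2-fold changes were 20 falls, or 44.4% of the members against 21.2% of all genes, and 5 rises, or 11.1% against 18.4%. The median log2 fold change of the members was −0.83, and that of all genes −0.03. The 3 IL-1β libraries lay entirely below the 3 control libraries for 32 members and entirely above for 10, against 41.1% and 38.8% of all tested genes.

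**Figure D1:**
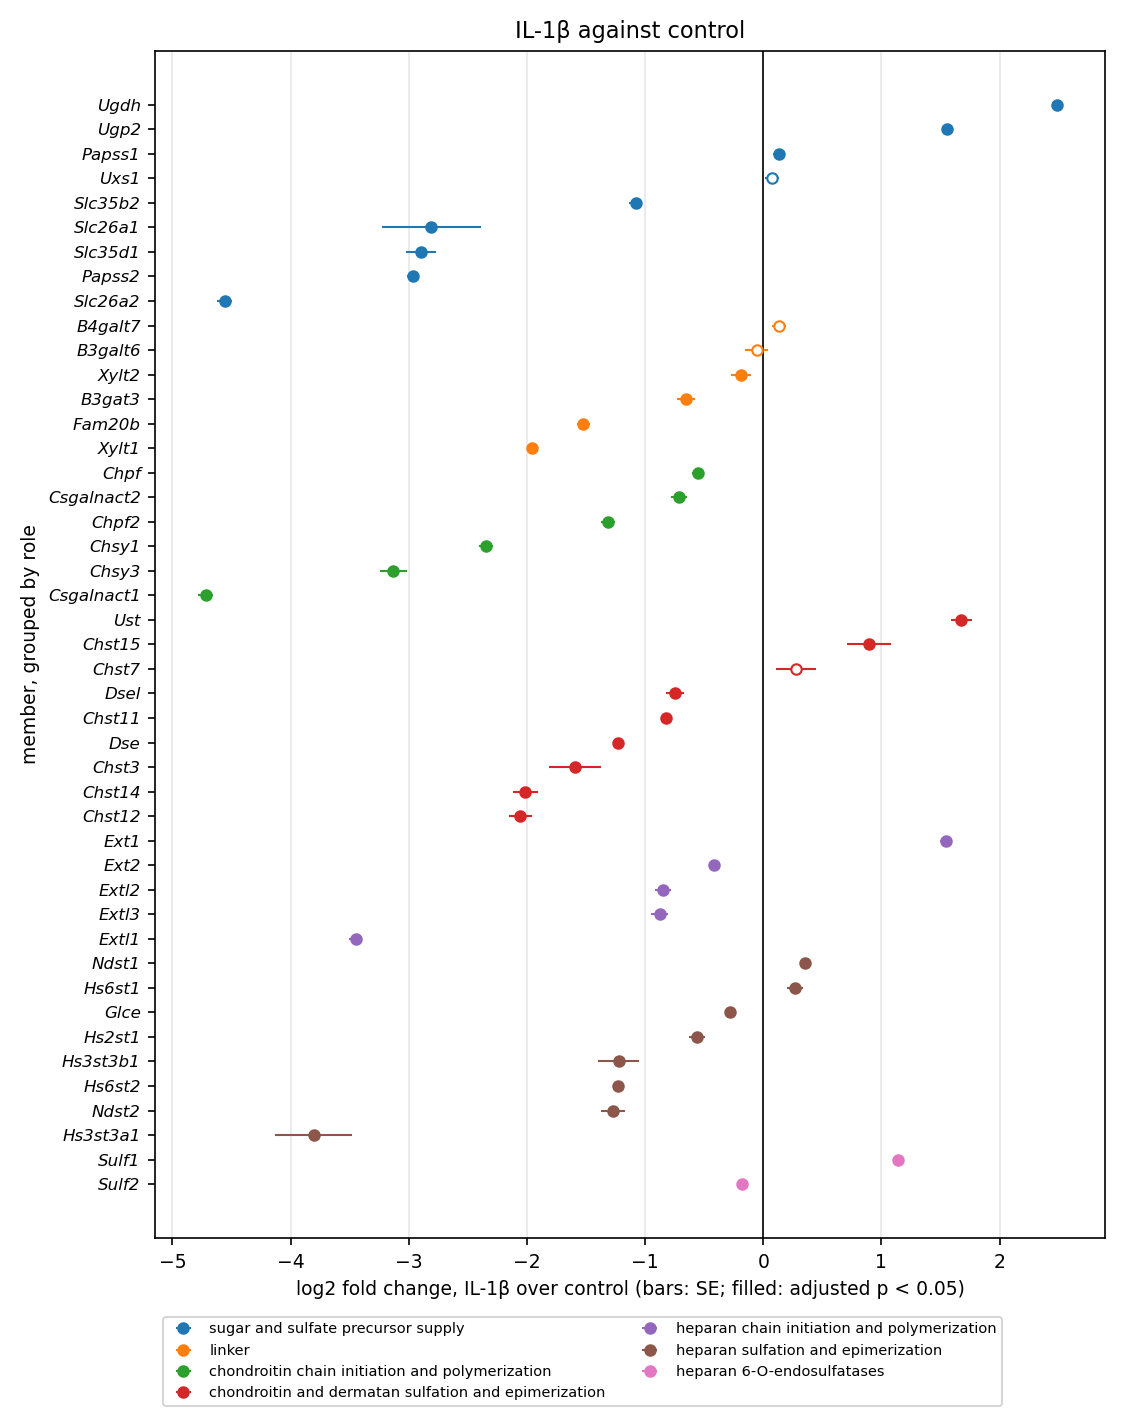
Log2 fold change of IL-1β over control for the 45 tested members, grouped by role and sorted within each role; points are fitted changes, bars are SE, and open points have an adjusted p of 0.05 or more. All 6 chondroitin polymerization genes lie left of 0, led by Csgalnact1 at −4.72, while Ugdh at 2.48, Ust, Ugp2, Ext1 and Sulf1 lie right of 1.

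The supply of sugar and sulfate precursors split into genes of UDP-sugar synthesis, which were higher or uncalled, and genes of sulfate supply and transport into the Golgi, most of which were lower. Ugdh (ENSMUSG00000029201) encodes the enzyme that oxidizes UDP-glucose to UDP-glucuronic acid, the uronic acid donor of both chains. It had 622, 624 and 624 CPM in the IL-1β libraries, against 105, 117 and 113 CPM in control libraries. Ugp2 (ENSMUSG00000001891), which makes the UDP-glucose that Ugdh uses, had 384, 388 and 394 CPM with IL-1β, against 131, 129 and 136 CPM in control. For both genes every IL-1β library lay above every control library, with log2 fold changes of 2.48 ± 0.04 for Ugdh (adjusted p = 5.35e-26) and 1.56 ± 0.04 for Ugp2 (adjusted p = 7.34e-22). Uxs1, which turns UDP-glucuronic acid into the UDP-xylose that starts the linker, was at 75.5 ± 1.67 CPM with IL-1β and 71.7 ± 5.80 CPM in control (SD, n = 3 each) and was not called (adjusted p = 0.263).

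Most genes of sulfate supply and of transport into the secretory pathway were lower. Slc26a2 (ENSMUSG00000034320) encodes the sulfate transporter of the chondrocyte membrane, and loss of its human counterpart causes chondrodysplasias. It had 15.4, 16.4 and 15.5 CPM with IL-1β, against 371, 369.7 and 374 CPM in control, which is 23.6-fold lower (log2 fold change −4.56 ± 0.07, adjusted p = 3.03e-27). Papss2 (ENSMUSG00000024899), a PAPS synthase that is also needed for normal skeletal growth in humans, had 95.5, 93.9 and 82 CPM with IL-1β, against 720.5, 696 and 701 CPM in control, or 7.81-fold lower (log2 fold change −2.96 ± 0.05, adjusted p = 3.39e-25). The groups were far apart for both genes and did not overlap. The other PAPS synthase, Papss1, averaged 86 ± 4.54 CPM with IL-1β and 78.3 ± 2.10 CPM in control, a small rise of 0.13 ± 0.05 (adjusted p = 0.0162). That call was lost without control library 3 (adjusted p = 0.0852), and with upper-quartile factors the difference was −0.014. Slc35d1, which carries UDP-glucuronic acid and UDP-N-acetylgalactosamine into the endoplasmic reticulum, had 2.92, 4.18 and 4.50 CPM with IL-1β, against 30.9, 29.6 and 26.3 CPM in control (log2 fold change −2.90 ± 0.12). Slc35b2, the carrier of PAPS into the Golgi, fell by 2.11-fold to 36.8 ± 1.62 CPM with IL-1β, against 77.9 ± 4.01 CPM in control. The second sulfate transporter on the list, Slc26a1, was at the low end, with 8, 9 and 2 counts in the IL-1β libraries and 45, 80 and 42 in control (log2 fold change −2.81 ± 0.42).

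The promoters of 4 members are shown to set 2 genes that rose far with IL-1β beside 2 that fell far. They are RefSeq sequences of the mouse build GRCm38.p6, 250 bases before to 50 after the annotated start, 5′ to 3′ on the gene's strand. Capitals mark the 10-base NF-κB pattern GGGNNNNTCC read on either strand. Of the members 39 had at least 1 such window, 49 windows in all. The 8 without one include Csgalnact1 and Slc26a2, which fell most, and Ext1 and Sulf1, which rose. Ugdh and Ust rose with IL-1β, and Papss2 and Extl1 fell. Papss2 has 2 windows, and the one that holds the pattern is given. Both genes shown that fell hold the pattern, which most windows of members that fell do not.
Ugdh (chr5:65435793-65436092, minus strand): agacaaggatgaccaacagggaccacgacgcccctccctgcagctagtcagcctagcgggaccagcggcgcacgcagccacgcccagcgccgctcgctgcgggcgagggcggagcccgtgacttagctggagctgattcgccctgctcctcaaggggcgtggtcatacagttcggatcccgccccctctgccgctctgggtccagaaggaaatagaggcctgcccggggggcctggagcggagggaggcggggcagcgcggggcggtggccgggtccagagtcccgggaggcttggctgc
Ust (chr10:8518776-8519075, minus strand): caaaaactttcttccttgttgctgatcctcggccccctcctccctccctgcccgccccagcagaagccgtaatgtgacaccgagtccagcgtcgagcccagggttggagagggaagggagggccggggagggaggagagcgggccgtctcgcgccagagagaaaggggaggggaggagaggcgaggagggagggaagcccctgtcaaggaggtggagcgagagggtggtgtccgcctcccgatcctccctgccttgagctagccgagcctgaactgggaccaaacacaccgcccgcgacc
Papss2 (chr19:32595465-32595764, plus strand): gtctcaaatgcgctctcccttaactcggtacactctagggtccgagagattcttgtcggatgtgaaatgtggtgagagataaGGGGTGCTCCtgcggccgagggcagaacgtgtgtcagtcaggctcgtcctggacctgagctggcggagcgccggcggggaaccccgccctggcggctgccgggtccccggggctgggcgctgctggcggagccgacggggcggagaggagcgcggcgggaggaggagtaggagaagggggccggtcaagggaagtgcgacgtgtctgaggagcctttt
Extl1 (chr4:134372498-134372797, minus strand): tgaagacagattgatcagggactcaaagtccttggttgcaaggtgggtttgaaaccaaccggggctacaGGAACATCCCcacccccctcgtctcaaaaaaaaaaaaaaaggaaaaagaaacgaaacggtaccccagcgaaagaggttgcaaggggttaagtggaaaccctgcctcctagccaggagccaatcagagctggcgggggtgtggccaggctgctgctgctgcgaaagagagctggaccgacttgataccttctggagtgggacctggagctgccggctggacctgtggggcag
The pattern was in 0 of 9 windows of members that rose (6 genes) and in 10 of 34 windows, or 29.4%, of members that fell (27 genes), against 19.2% of all 32851 promoter windows. The AP-1 motif TGANTCA was in 0 of the 9 and in 2 of the 34 windows, against 7.81% of all windows. The SOX motif ACAAT, searched on both strands like the others, was in 1 of the 9 and 5 of the 34 windows, against 31.0% of all. The 3 patterns do not count as sites of any factor, and a window without them says only that these letters are not there.

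The linker enzymes fell in part. Xylt1 (ENSMUSG00000030657), the xylosyltransferase that starts the linker, fell 3.87-fold to 236 ± 8.19 CPM with IL-1β, against 913 ± 15.8 CPM in control (adjusted p = 2.14e-24). Fam20b, a kinase that phosphorylates the linker xylose, fell to 55.5 ± 4.25 CPM, against 159 ± 4.02 CPM in control (log2 fold change −1.52 ± 0.05), and B3gat3, which adds the glucuronic acid that completes the linker, had a log2 fold change of −0.66. Xylt2, the other xylosyltransferase, averaged 20.7 ± 2.53 CPM with IL-1β and 23.5 ± 0.493 CPM in control. Its adjusted p of 0.0458 rose above the threshold when any 1 library was left out, apart from IL-1β library 1. The values were then 0.0555 to 0.455. With all libraries of both groups, the call was also lost with RLE factors (0.0739) and without a low-count filter (0.0998). It was lost too in the 6 libraries alone (0.0575) and with DESeq2 (0.119), and kept with upper-quartile factors and a replicate block. The galactosyltransferases of the linker were not called: B4galt7, which adds the first galactose, had 37.9, 38.8 and 38.6 CPM with IL-1β, against 34.9, 33.1 and 37.3 CPM in control (log2 fold change 0.13 ± 0.06, adjusted p = 0.0509). It passed the threshold with RLE factors, without a low-count filter, in the 6 libraries alone and without any of 6 single libraries, at adjusted p of 0.0222 to 0.0495, and with upper-quartile factors its difference was −0.015. B3galt6, which adds the second galactose, differed by −0.053 ± 0.10 (adjusted p = 0.624).

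All 6 genes that start and extend chondroitin chains fell, against 40.4% of all tested genes. Csgalnact1 (ENSMUSG00000036356), which adds the first N-acetylgalactosamine and so commits a linker to chondroitin, had the largest fall of the 45 members. It had 12.2, 13.4 and 11.9 CPM with IL-1β, against 324, 331 and 330.2 CPM in control, which is 26.3-fold lower (log2 fold change −4.72 ± 0.06, adjusted p = 7.62e-28). The polymerase gene Chsy3 (ENSMUSG00000058152) had 3.16, 3.39 and 3.47 CPM with IL-1β, against 30.7, 30.1 and 27.2 CPM in control, or 8.76-fold lower (adjusted p = 1.8e-18). In both cases every IL-1β library was far below every control library. The polymerase Chsy1 fell to 33 ± 2.40 CPM, against 168 ± 4.61 CPM in control, a log2 fold change of −2.34 ± 0.06. The polymerizing factors Chpf2 and Chpf, partners of the Chsy proteins, had log2 fold changes of −1.31 and −0.56, and Csgalnact2, the close relative of Csgalnact1, one of −0.71.

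Enzymes that sulfate or epimerize chondroitin went both ways. Of 9 tested members 6 fell and 2 rose, against 40.4% of all tested genes that fell and 38.5% that rose. Chst11 and Chst12 place sulfate on carbon 4 of N-acetylgalactosamine, the form that dominates growing cartilage. Chst11 fell to 164 ± 3.33 CPM with IL-1β, against 291 ± 3.39 CPM in control (log2 fold change −0.83 ± 0.04). Chst12 had 10.6, 10.8 and 8.71 CPM with IL-1β, against 40.2, 43.3 and 41.3 CPM in control, or 4.16-fold lower. Chst14, the 4-O-sulfotransferase of dermatan sulfate, fell 4.04-fold. The epimerases that turn chondroitin into dermatan, Dse and Dsel, had log2 fold changes of −1.23 and −0.75, with Dse at 66, 62.9 and 63.1 CPM, against 153, 149 and 148 CPM in control. Of the genes for sulfation on carbon 6, Chst3 fell to 2.05 ± 0.858 CPM, against 6.19 ± 0.473 CPM in control (log2 fold change −1.59 ± 0.22). Chst7 averaged 7.84 ± 1.91 CPM with IL-1β and 6.45 ± 0.886 CPM in control and was not called (adjusted p = 0.138), although it was called as higher without IL-1β library 3 (log2 fold change 0.49, adjusted p = 0.00812).

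The 2 that rose add a further sulfate to chains that are already sulfated. Ust (ENSMUSG00000047712), which sulfates the uronic acid on carbon 2, had 33.8, 32.5 and 30.7 CPM with IL-1β, against 10.9, 10.7 and 8.78 CPM in control, which is 3.20-fold higher (log2 fold change 1.68 ± 0.09, adjusted p = 3.21e-15). Chst15 (ENSMUSG00000030930), which adds a sulfate on carbon 6 of 4-sulfated N-acetylgalactosamine, had 4.50, 5.63 and 4.61 CPM with IL-1β, against 2.63, 2.84 and 2.44 CPM in control (log2 fold change 0.89 ± 0.19, adjusted p = 0.00012). For both genes the groups did not overlap. Chst13, a 4-O-sulfotransferase, had too few counts to be tested, with 6, 3 and 7 counts in the libraries with IL-1β and SFRP5, 6, 3 and 1 with IL-1β and 2, 0 and 0 in control.

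Among the genes that start and extend heparan chains 4 of 5 fell and Ext1 rose. Of all tested genes 40.4% fell and 38.5% rose. Ext1 and Ext2 form the heparan polymerase together, and loss of either in humans causes cartilage-capped bone outgrowths. Ext1 (ENSMUSG00000061731) had 229.5, 243 and 228 CPM with IL-1β, against 81.4, 80.9 and 78 CPM in control, which is 2.91-fold higher (adjusted p = 1.25e-20). Its partner Ext2 was slightly lower, at 125 ± 1.26 CPM with IL-1β and 167 ± 2.22 CPM in control (log2 fold change −0.42 ± 0.04). Extl1 (ENSMUSG00000028838), a transferase related to them, had 14.3, 13.7 and 13.9 CPM with IL-1β, against 156, 148 and 152 CPM in control, or 10.9-fold lower (adjusted p = 2.79e-26). Extl3, which adds the first N-acetylglucosamine and so commits a linker to heparan, and Extl2 had log2 fold changes of −0.88 and −0.85.

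Heparan sulfation and epimerization genes also went both ways, with 6 falls and 2 rises among 8 tested. The shares of all tested genes were 40.4% lower and 38.5% higher. Ndst1 replaces acetyl groups by sulfate at the start of heparan modification, and it rose by 0.36 ± 0.04 to 150.1 ± 3.82 CPM, against 117 ± 3.05 CPM in control, whereas its relative Ndst2 fell 2.42-fold. Hs6st2, a 6-O-sulfotransferase, fell to 65.4 ± 2.32 CPM, against 154 ± 1.40 CPM in control (log2 fold change −1.23 ± 0.04), while Hs6st1 rose by 0.27 ± 0.07 (adjusted p = 0.00128), a call lost with upper-quartile factors (adjusted p = 0.117). The epimerase Glce and the 2-O-sulfotransferase Hs2st1 fell, with log2 fold changes of −0.28 and −0.56. Hs3st3a1 and Hs3st3b1, 3-O-sulfotransferases with nearly identical catalytic domains between which reads may be divided, had log2 fold changes of −3.81 and −1.22. Hs3st3a1 (ENSMUSG00000047759) had 5, 5 and 7 counts in the IL-1β libraries, or 0.304, 0.303 and 0.398 CPM, against 116, 89 and 89 counts, or 5.86, 4.02 and 4.52 CPM, in control. The 3-O-sulfotransferase Hs3st1 could not be tested, with 0, 0 and 2 counts with IL-1β and SFRP5, 0, 2 and 4 with IL-1β and 2, 0 and 4 in control.

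The endosulfatases act after the others, removing 6-O-sulfate from heparan outside the cell. Sulf1 (ENSMUSG00000016918) had 382, 402 and 393 CPM with IL-1β, against 174, 177 and 182 CPM in control, which is 2.21-fold higher (log2 fold change 1.14 ± 0.04, adjusted p = 1.51e-19). Sulf2 was 180.1 ± 8.04 CPM with IL-1β and 204 ± 1.82 CPM in control, a small fall (log2 fold change −0.18 ± 0.04, adjusted p = 0.000456).

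**Figure D2:**
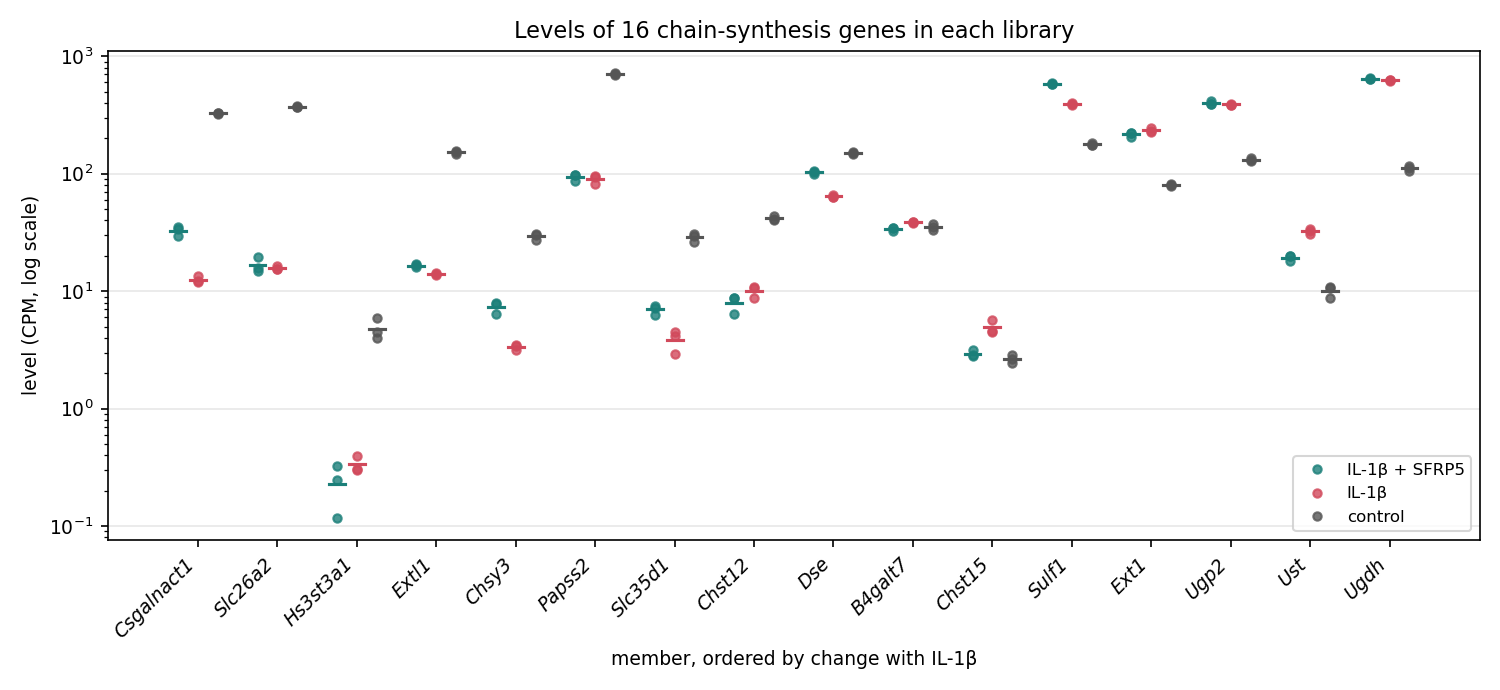
Level in each library, in CPM on a log scale, of 16 members, those with the 6 largest called falls and 6 largest called rises with IL-1β and the 4 largest called differences in each direction with SFRP5, ordered from the largest fall to the largest rise with IL-1β; points are libraries, short lines are means of 3, and the groups run from IL-1β with SFRP5 through IL-1β to control. Csgalnact1, Chsy3, Slc35d1 and Dse with SFRP5 lie between the IL-1β and the control libraries, while Slc26a2 and Papss2 with SFRP5 lie at the level of IL-1β.

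The second comparison asked what SFRP5 changed in cells that also received IL-1β. Several genes of chondroitin chain synthesis were higher with SFRP5, while the genes of sulfate uptake and PAPS synthesis were not called. Of 45 tested members 18 were higher with SFRP5 than with IL-1β alone, 5 were lower and 22 were not called. That is 40% higher, against 15.6% of all tested genes, and 11.1% lower, against 15.7%. Differences of at least 2-fold were 2 among the members, both higher, against 2.21% of all genes higher and 1.91% lower. The median log2 fold change was 0.14 for the members and 0.01 for all genes. For 19 members the SFRP5 libraries lay entirely above the IL-1β libraries and for 4 entirely below, against 20.5% and 20.3% of all genes. This comparison and that of IL-1β with control use the same IL-1β libraries, so values are given side by side.

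**Figure D3:**
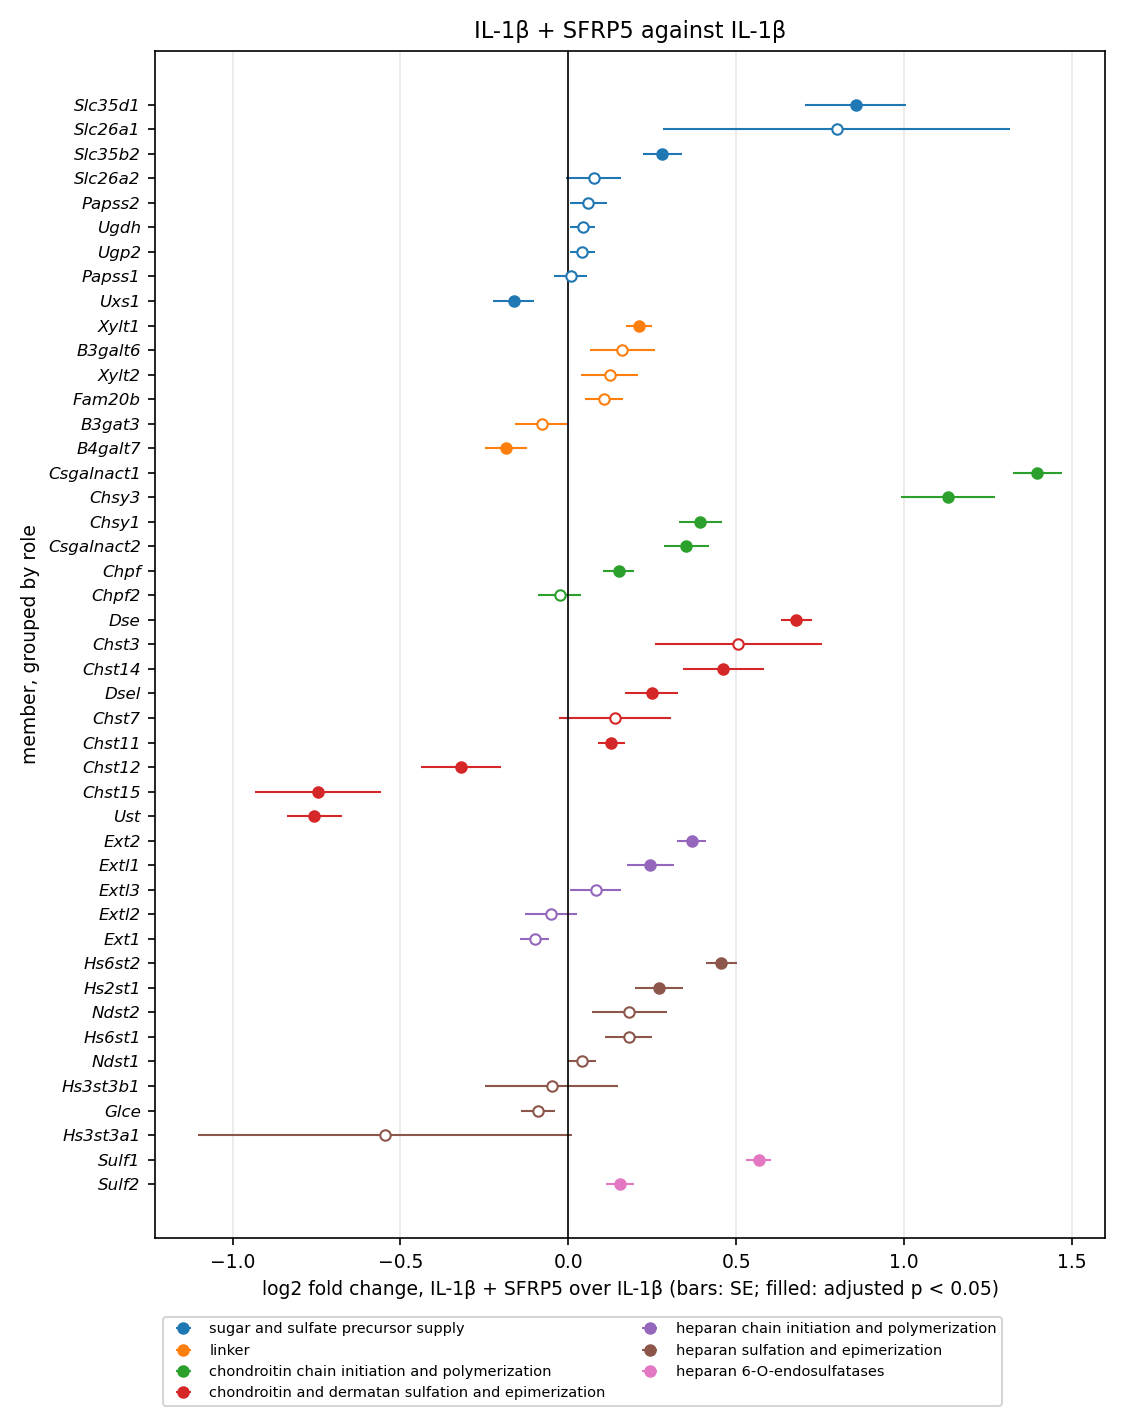
Log2 fold change of IL-1β with SFRP5 over IL-1β alone for the 45 tested members, grouped by role; points are fitted changes, bars are SE, and open points have an adjusted p of 0.05 or more. Csgalnact1 at 1.40 and Chsy3 at 1.13 are the only members past 1, and Ust and Chst15 are the lowest called members.

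Csgalnact1 and Chsy3 differed most. Csgalnact1 had 35.3, 29.4 and 33.6 CPM with IL-1β and SFRP5, against a mean of 12.5 ± 0.828 CPM with IL-1β, which is 2.63-fold higher (log2 fold change 1.40 ± 0.07, adjusted p = 6.33e-14). Chsy3 had 6.36, 8.0 and 7.79 CPM with SFRP5, against 3.34 ± 0.162 CPM with IL-1β, or 2.19-fold higher (adjusted p = 4.97e-07). No library with SFRP5 overlapped an IL-1β library for these genes, and none reached the control libraries: Csgalnact1 was still 9.99-fold and Chsy3 4.0-fold below control. The polymerase Chsy1 and the initiator Csgalnact2 were higher by 0.39 ± 0.06 and 0.35 ± 0.07. Chpf was higher by 0.15 ± 0.05 (adjusted p = 0.017), a call lost without IL-1β library 2 (adjusted p = 0.0641) or SFRP5 library 2 (0.0606). Chpf2 was at 51.3 ± 3.46 CPM with SFRP5 and 52.4 ± 5.50 CPM with IL-1β (adjusted p = 0.804).

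Other members that were higher with SFRP5 act before and after polymerization. Slc35d1, the UDP-sugar carrier, had 7.49, 6.24 and 7.20 CPM with SFRP5, against 3.86 ± 0.836 CPM with IL-1β (log2 fold change 0.86 ± 0.15, adjusted p = 7.55e-05). Dse, the dermatan epimerase, had 103, 99.6 and 105 CPM, against 64 ± 1.73 CPM with IL-1β (log2 fold change 0.68 ± 0.05, adjusted p = 1.2e-11). In both genes the SFRP5 libraries lay between the IL-1β and the control libraries. Xylt1 was higher by 0.21 ± 0.04 and Slc35b2 by 0.28 ± 0.06. Among sulfotransferases Chst14 was higher by 0.46 ± 0.12 (adjusted p = 0.0531 without SFRP5 library 3). Chst11 was higher by 0.13 ± 0.04 (adjusted p = 0.0653 without IL-1β library 1 and 0.0636 without SFRP5 library 2). Hs6st2 was higher by 0.46 ± 0.05 and Hs2st1 by 0.27 ± 0.07, although for Hs2st1 the SFRP5 and IL-1β libraries overlapped. Dsel was higher by 0.25 ± 0.08, which was not called without IL-1β library 2 (adjusted p = 0.137) or SFRP5 library 1 (0.0793). Of the heparan polymerase genes Ext2 was higher by 0.37 ± 0.04. Extl1 had 16.6, 17 and 16 CPM with SFRP5, against 14 ± 0.301 CPM with IL-1β, a log2 difference of 0.24 ± 0.07 (adjusted p = 0.00834).

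Both endosulfatases were higher with SFRP5. Sulf1 had 576, 577 and 591 CPM with SFRP5, against 392 ± 9.92 CPM with IL-1β (log2 fold change 0.57 ± 0.04, adjusted p = 4.59e-12), so that it was higher in the IL-1β libraries than in control and higher again with SFRP5. Sulf2 was higher by 0.15 ± 0.04 (adjusted p = 0.00607), and its call was lost without IL-1β library 1 (0.0554).

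Of the 5 members that were lower with SFRP5, Ust and Chst15 had the largest differences. Ust had 17.9, 19.8 and 19.9 CPM with SFRP5, against 32.3 ± 1.53 CPM with IL-1β (log2 fold change −0.76 ± 0.08, adjusted p = 6.71e-08). Chst15 had 2.86, 2.80 and 3.13 CPM with SFRP5, against 4.91 ± 0.625 CPM with IL-1β (log2 fold change −0.74 ± 0.19, adjusted p = 0.00331). For Ust the SFRP5 libraries stayed above control, and for Chst15 they were not called against control (adjusted p = 0.506). The remaining 3 were close to the threshold. Chst12 had 8.83, 8.78 and 6.37 CPM with SFRP5, against 10.0 ± 1.14 CPM with IL-1β (adjusted p = 0.0439), and the groups overlapped. B4galt7 had 34.4, 32.8 and 34.2 CPM, against 38.4 ± 0.471 CPM with IL-1β (adjusted p = 0.025). Uxs1 averaged 67.3 ± 5.62 CPM with SFRP5 and 75.5 ± 1.67 CPM with IL-1β (adjusted p = 0.0431). Of the 9 libraries, leaving out any of 6 ended the call of Chst12, any of 6 that of Uxs1 and any of 3 that of B4galt7. The number of members called lower was 5 with all libraries, 3 with upper-quartile factors, and 2 when IL-1β library 2 was left out. It was 3 when the library left out was control 2, IL-1β 1, IL-1β 3, SFRP5 2 or SFRP5 3.

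The genes of sulfate uptake and PAPS synthesis showed no called difference with SFRP5. Slc26a2 had 15.6, 14.7 and 19.5 CPM with SFRP5, against 15.8 ± 0.55 CPM with IL-1β, a log2 difference of 0.076 ± 0.08 (adjusted p = 0.531). Papss2 had 97.5, 98.3 and 86.9 CPM with SFRP5, against 90.5 ± 7.35 CPM with IL-1β, a difference of 0.06 ± 0.05 (adjusted p = 0.442). For both genes the groups overlapped, and both stayed far below control. The genes that had risen with IL-1β in UDP-sugar synthesis were also near their IL-1β level. Ugdh had 637, 649 and 641 CPM with SFRP5 and Ugp2 had 393, 417 and 391 CPM. Their log2 differences from IL-1β were 0.043 ± 0.04 and 0.042 ± 0.04 (adjusted p = 0.429 and 0.45). The SFRP5 libraries lay entirely above the IL-1β libraries for Ugdh and overlapped them for Ugp2. Ext1 had 223, 207 and 223 CPM with SFRP5, against 233 ± 8.27 CPM with IL-1β (log2 difference −0.10 ± 0.04, adjusted p = 0.0811), and the groups did not overlap. Hs3st3a1 had 5, 5 and 2 counts, or 0.247, 0.325 and 0.118 CPM, with SFRP5. Over the 22 members that were not called the log2 differences ran from −0.55 for Hs3st3a1 to 0.80 for Slc26a1, both low in counts. Chst3 was at 2.92 ± 0.503 CPM with SFRP5 and 2.05 ± 0.858 CPM with IL-1β (log2 difference 0.51 ± 0.25, adjusted p = 0.13), and without IL-1β library 1 it was called as higher (0.90, adjusted p = 0.00988).

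Cells with IL-1β and SFRP5 were then set against control cells. Of the 45 tested members 29 were lower, or 64.4% against 39.0% of all genes, and 9 were higher, or 20% against 37.3%. At least 2-fold differences were 17 lower, against 19.0% of all genes, and 4 higher, against 17.2%. For 29 members the libraries lay entirely below control and for 8 entirely above, against 40.0% and 38.2% of all genes. The median log2 fold change was −0.70 for the members and −0.02 for all genes. Slc26a2 and Hs3st3a1 were the lowest, at −4.48 ± 0.06 and −4.35 ± 0.35, followed by Csgalnact1 at −3.32 ± 0.06, Extl1 at −3.20 ± 0.05 and Papss2 at −2.90 ± 0.05. Ugdh at 2.53 ± 0.04, Sulf1 at 1.71 ± 0.04, Ugp2 at 1.60 ± 0.04 and Ext1 at 1.44 ± 0.05 were the 4 at least 2-fold higher. Of the other 5 higher members, Papss1 and Chst7 lost their calls with upper-quartile factors (adjusted p = 0.896 and 0.122). Ext2 was at 162 ± 8.11 CPM with IL-1β and SFRP5 and 167 ± 2.22 CPM in control (adjusted p = 0.297), and Sulf2 at 200.4 ± 4.63 and 204 ± 1.82 CPM (adjusted p = 0.622). With upper-quartile factors, which lower the median of all genes by 0.13 in this comparison and by 0.15 in that of IL-1β with control, both were called lower than control, at −0.18 and −0.16.

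Levels per length show which members carry most transcripts. Divided by the gene length in the deposited table, which the authors do not define there, Papss2 had the highest level of the 47 in control cells, at 189.7 CPM per kilobase, and was followed by Xylt1 at 94.6, Csgalnact1 at 64.5 and Chst11 at 52.6. In the IL-1β libraries Ugp2 and Ugdh led at 127 and 92.3 CPM per kilobase, with Sulf1 at 34.7. Csgalnact1 was there the 36th of the 47, at 2.45. With IL-1β and SFRP5 the same 3 genes led, Ugp2 at 130.4, Ugdh at 95.1 and Sulf1 at 51.5 CPM per kilobase, and Csgalnact1 was the 26th at 6.43.

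Summed over a role, the level per length differed between the groups by unequal amounts. The 6 chondroitin initiation and polymerization genes summed to 45.9 ± 1.07 CPM per kilobase with IL-1β and 171 ± 3.41 in control (SD, n = 3 each), and to 56.6 ± 1.09 with IL-1β and SFRP5. The 6 linker genes summed to 61.5 ± 1.23 with IL-1β and 148 ± 1.72 in control, of which Xylt1 alone gave 24.4 and 94.6. Chondroitin sulfation and epimerization summed to 66.2 ± 1.94 and 129 ± 1.65 in the same groups. The heparan roles were closer, at 61.0 ± 1.61 and 89.3 ± 1.57 for chain initiation and polymerization and 54.6 ± 1.40 and 71.2 ± 0.423 for sulfation and epimerization. In the first of these sums Extl1 had 3.22 with IL-1β and 35.2 in control, while Ext1 had 28.9 and 9.92. Such sums therefore do not describe each member. Precursor supply summed to 299.9 ± 2.04 with IL-1β and 348 ± 3.11 in control, a sum in which the rise of Ugp2 and Ugdh stood beside the fall of Papss2. The endosulfatases summed to 65.4 ± 2.17 with IL-1β and 50.4 ± 0.659 in control, and to 85.6 ± 1.44 with IL-1β and SFRP5. For all 7 roles the IL-1β libraries did not overlap the control libraries. These sums are descriptions, as 3 against 3 libraries cannot reach a two-sided exact permutation p below 0.1.

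**Figure D4:**
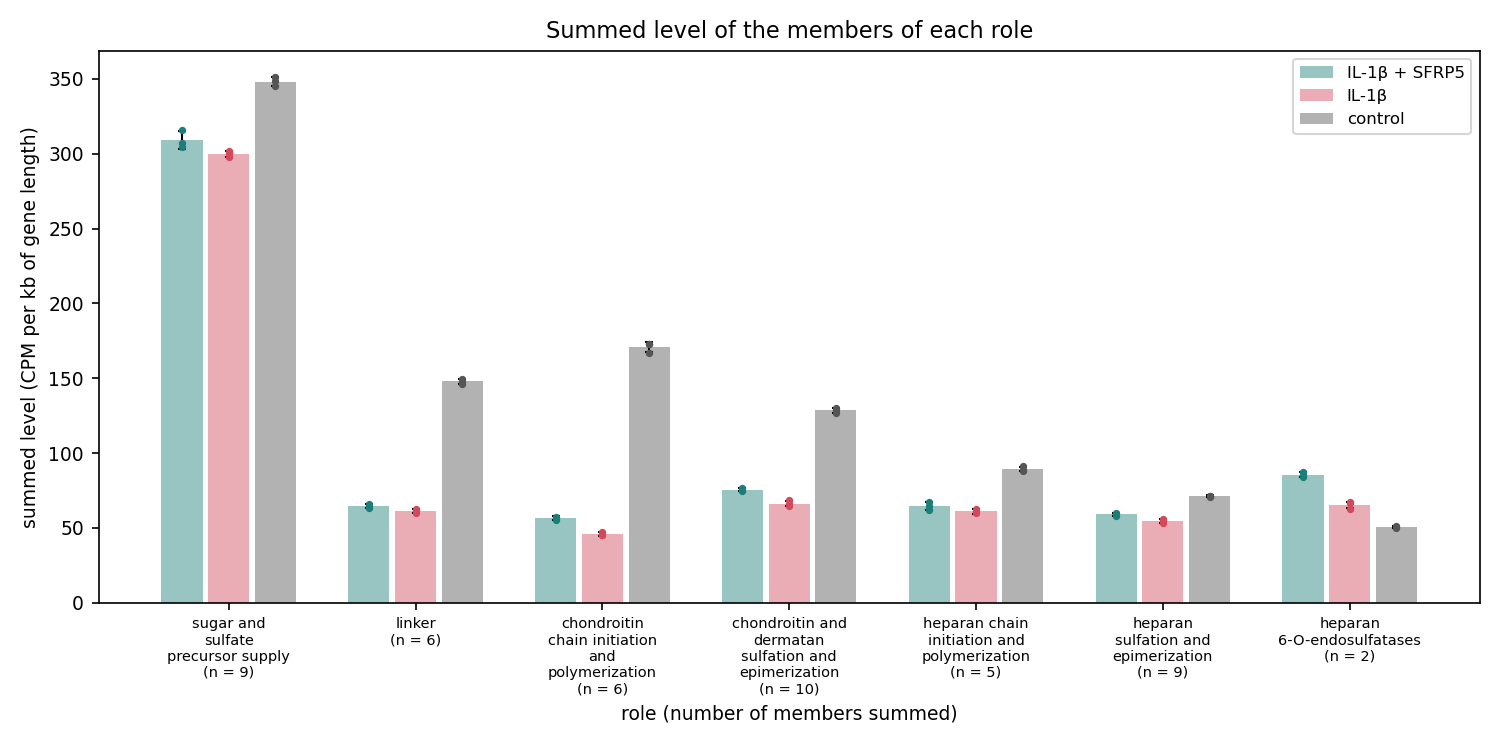
Summed level per length of the members of each role, in CPM per kilobase of gene length; bars are means of 3 libraries, black bars are SD, and points are libraries, with IL-1β and SFRP5 left, IL-1β in the middle and control right. The chondroitin initiation and polymerization genes have 45.9 with IL-1β and 171 in control, and the endosulfatases are the role with the control libraries at the bottom.

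Related enzymes also shifted against each other. The ratio of levels per length was taken in each library for 10 pairs of close relatives or partners. The ratio of Papss2 to Papss1 was 0.862 ± 0.0254 with IL-1β and 7.40 ± 0.21 in control (SD, n = 3 each). For Csgalnact1 to Csgalnact2 it was 0.850 ± 0.112 with IL-1β and SFRP5, 0.416 ± 0.0621 with IL-1β and 6.61 ± 0.0895 in control. Thus in control cells Papss2 and Csgalnact1 exceeded their relatives, and in both other groups they were below them. The opposite held for Ext1 over Ext2, at 1.69 ± 0.077 with IL-1β and 0.434 ± 0.00449 in control, and for Sulf1 over Sulf2, at 1.13 ± 0.0305 and 0.454 ± 0.00607. Of the 4-O-sulfotransferases, the ratio of Chst11 to Chst12 was 7.07 ± 0.991 with IL-1β and 2.99 ± 0.0778 in control, and Ndst1 to Ndst2 likewise stood higher, at 9.0 ± 1.01 and 2.90 ± 0.111. The ratio of Xylt1 to Xylt2 was lower, at 4.76 ± 0.656 with IL-1β and 16 ± 0.462 in control, as was that of Hs6st2 to Hs6st1, at 1.48 ± 0.132 and 4.20 ± 0.306. For Chsy1 to Chsy3 the ratio was 10.3 ± 1.53 with IL-1β and SFRP5, 17.1 ± 0.822 with IL-1β and 9.96 ± 0.931 in control, and for Dse to Dsel it was 4.28 ± 0.167, 3.20 ± 0.317 and 4.43 ± 0.149. In these last pairs the SFRP5 libraries overlapped control and not IL-1β. The ranges of the IL-1β and control libraries did not overlap for any of the 10 ratios.

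**Figure D5:**
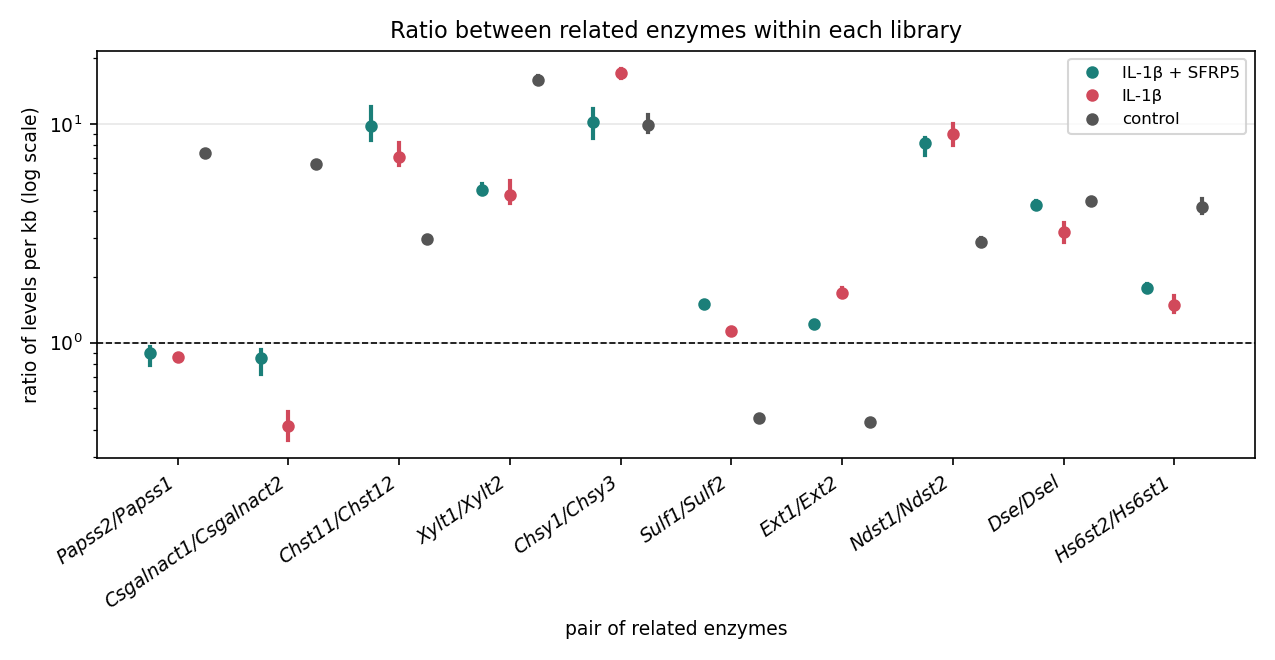
Ratio of the level per length between related members within each library, on a log scale, with the dashed line at equal levels; points are means of 3 libraries and vertical lines run from the lowest to the highest library. Papss2/Papss1 and Csgalnact1/Csgalnact2 lie above 1 in control and below 1 in both groups with IL-1β, and Sulf1/Sulf2 and Ext1/Ext2 lie below 1 in control and above 1 in both.

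Other genes of the pathway were read from 5 further lists, whose counts stand against 38.5% of all tested genes higher and 40.4% lower with IL-1β. Of 8 tested further synthesis genes of the same chains 5 fell and 2 rose with IL-1β. Slc10a7 and Tmem165, membrane proteins whose human counterparts are needed for normal skeletal growth, both had log2 fold changes of −1.60. Hs3st6, a 3-O-sulfotransferase, had 423 counts in all in the IL-1β group and 4 in the control group, and Slc35b3, a PAPS carrier, rose by 0.27 on the log2 scale. Of 12 genes of hexosamine and UDP-sugar supply 5 rose and 6 fell, shares near those of all genes, and their median log2 fold change was −0.25, against −0.03 for all genes. The phosphoglucomutase gene Pgm1 rose to 757 ± 25.5 CPM with IL-1β, against 103 ± 4.11 CPM in control, and Galm, a galactose mutarotase, rose by 1.88 on the log2 scale. Gfpt2, an entry enzyme of the hexosamine pathway, had a log2 fold change of −1.73, while the lowest on this list was −3.23. The keratan sulfate list had 4 falls and 0 rises among 5 tested genes, led by the sulfotransferases Chst1 at −1.97 and Chst2 at −1.84.

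Of 16 tested genes that break the chains down 8 rose and 7 fell, against 38.5% and 40.4% of all genes, and their median log2 fold change was 0.07. The hyaluronidase Hyal1 rose to 52 ± 5.41 CPM with IL-1β, against 15 ± 0.896 CPM in control. The lysosomal enzymes Gusb, a glucuronidase, and Arsk, a sulfatase, fell, with log2 fold changes of −0.89 and −0.86. Of 18 tested core proteins that can carry these chains 9 rose and 8 fell, also near the shares of all genes, and the median log2 fold change was 0.10. Acan, the aggrecan gene, and Cspg4, a membrane proteoglycan, had log2 fold changes of −3.95 and −2.01, while Srgn, the granule proteoglycan serglycin, and the small proteoglycan Dcn had 4.56 and 2.62. Against IL-1β alone, SFRP5 had 8 of these 18 core proteins higher and 5 lower, against 15.6% and 15.7% of all genes. Log2 differences were 0.94 for Cspg4, 0.10 for Acan and −0.67 for Srgn, and 2 others were at least 2-fold higher, up to 1.13. For Acan the groups overlapped (adjusted p = 0.0272), and the libraries with SFRP5 stayed far below control.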

How the data were processed

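RNA was sequenced from 9 chondrocyte libraries, 3 per group. Per the labels' protocols, the authors trimmed 150 bp paired reads with fastp, aligned them to mouse mm10 with STAR and quantified them with RSEM. The deposited counts are whole numbers per gene, and how RSEM estimates became whole numbers, the annotation and the strand setting are not given in the sources used here, so reads of overlapping or antisense genes may be shared. Columns were matched to samples by name.

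From the deposited counts, edgeR 4.0.16 (R 4.3.3, limma 3.58.1) fitted a quasi-likelihood model with 1 mean per group over all 9 libraries, with TMM factors and edgeR's default low-count filter. It tested 15502 genes, with Benjamini-Hochberg adjustment over all of them, and the SE is the log2 fold change divided by the square root of F. Of these steps only the edgeR fit of IL-1β against control was run on simulated counts. Few genes changed in that simulation, so scaling where most genes change, as here, was not tested. Depth of 15795985 to 20688963 counts leaves counting error small except for members with few counts. DESeq2 1.42.0, RLE and upper-quartile factors, no filter, 6 libraries, a replicate block and leaving out each library were tried. The members, lists and named genes (the 6 largest falls and 6 largest rises with IL-1β, the 4 largest differences in each direction with SFRP5, and 2 per direction of each related list, of which some are not reported here) were chosen with earlier results of these data known. No table coordinates are printed, since the table's positions did not match those of RefSeq GRCm38: only 10 of the 47 members' intervals overlapped.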

Additional observations from a re-analysis of the deposited data

How the results depend on the processing

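Under RLE and upper-quartile factors, DESeq2, no low-count filter, a fit to the 6 libraries compared, a replicate block and each library left out, the counts of members called stayed within 1.5 times of those with all libraries, except the 5 called lower with SFRP5 than with IL-1β. That count was 3 with upper-quartile factors and 2 to 5 with 1 library left out. No sign of pairing by replicate number was seen. Deviations of same-numbered libraries from their group means correlated at −0.0364 to 0.0402, and those of differently numbered libraries at −0.0388 to 0.0555. Whether same-numbered libraries shared an animal or batch cannot be told from these values. With the replicate block 9 members were higher and 32 lower with IL-1β than in control, 19 higher and 4 lower with SFRP5 than with IL-1β, and 9 higher and 29 lower with both than in control. Under the block Uxs1 lost its call (adjusted p = 0.0504) and Hs6st1 gained one (adjusted p = 0.0405) between SFRP5 with IL-1β and IL-1β alone. Uxs1 also lost it with DESeq2 (0.0523) and upper-quartile factors (0.0603). With all libraries Hs6st1 differed by 0.18 ± 0.07 (adjusted p = 0.0513). It was also called with upper-quartile factors (0.0367) and without IL-1β library 2 (0.044) or SFRP5 library 1 (0.0459), and not under the other settings. Upper-quartile factors shifted the median of all genes by −0.15 for IL-1β over control.

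Small differences changed sign, and the cause was not tested. For IL-1β over control, upper-quartile factors gave −0.073 for Uxs1, −0.014 for Papss1 and −0.015 for B4galt7, and B3galt6 ran from −0.079 to 0.013 with 1 library left out. For SFRP5 with IL-1β over IL-1β, Papss1 was −0.00092 with RLE factors and −0.00091 with DESeq2. With 1 library left out, the ranges were −0.035 to 0.033 for Papss1, −0.0052 to 0.12 for Papss2, −0.052 to 0.15 for Slc26a2, −0.10 to 0.045 for Chpf2 and −0.048 to 0.29 for Chst7. They were −0.089 to 0.0020 for Extl2, −0.043 to 0.16 for Extl3 and −0.35 to 0.10 for Hs3st3b1. For SFRP5 with IL-1β over control, B3galt6 was −0.026 with upper-quartile factors, and leaving out 1 library gave −0.086 to 0.0072 for Xylt2, −0.082 to 0.0065 for Ext2 and −0.032 to 0.018 for Sulf2. Depth limits the members with few counts most, such as Hs3st3a1, Slc26a1 and Chst15.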
